A study of Mus musculus with 6 samples.

Results

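Actins and tropomyosins, the proteins that build the thin filament of muscle and the filaments of the cytoskeleton, were followed in differentiated muscle cell cultures with and without the RNA-binding protein Sfpq. The set was fixed by name and holds the 5 actins Acta1, Actc1, Acta2, Actb and Actg1 and the tropomyosins Tpm1, Tpm2, Tpm3 and Tpm4. All 9 were found among 34656 genes with a deposited value, and all 9 were among the 12461 genes tested, those reaching a TPM (transcripts per 1000000 transcripts) of 1 in 3 or more libraries. Primary cells were taken from the skeletal muscle of male mice aged 1 month, either SfpqSM-KO mice, the skeletal muscle knockout (labelled SFPQ_KO, n = 3), or control mice (labelled Cont, n = 3). Myoblasts, the precursors of muscle fibres, were expanded with basic fibroblast growth factor and then left to fuse into myotubes for 4 days in medium with 2% horse serum. The sources used here give neither the Cre driver nor the exons removed, the exact genotype of the controls or any pooling of animals. The labels do not say whether replicates came from separate mice or cultures, and p-values therefore measure the spread among these libraries, which may be technical. In bulk RNA, fewer cells of a type and less RNA per cell cannot be told apart.

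Actin monomers polymerise into filaments, and tropomyosin dimers lie along the filament, where with troponin they gate the access of myosin. Acta1 and Actc1 encode the striated muscle actins: Actc1 is the main actin of heart and of embryonic skeletal muscle, and Acta1 takes over as skeletal muscle matures. Acta2 is the smooth muscle actin, which immature muscle cells also make, and Actb and Actg1 encode the beta and gamma actins of the cytoplasm found in nearly every cell. Tpm1 and Tpm2 encode the alpha and beta tropomyosins of muscle, Tpm3 the tropomyosin of slow fibres, and Tpm4 a tropomyosin of the cytoskeleton. Tpm1, Tpm2 and Tpm3 also give cytoskeletal forms through other promoters and alternative exons.

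Sfpq, the targeted gene, stood at 18.3, 19.3 and 14.1 TPM in knockout replicates 1 to 3 and at 48.6, 60.5 and 49.9 TPM in control replicates 1 to 3, so every knockout library lay below every control library (log2 difference −1.57, SE 0.15, adjusted p = 0.0531 by limma). The 8 myotube markers summed to between 33299 and 36681 TPM in knockout and between 31255 and 34318 TPM in control. Among markers of other cells, the blood cell genes Ptprc and Adgre1 were listed at 0 throughout. Of the other genes of that list, Cd68 ranged from 0.48 to 1.45 TPM and Csf1r reached at most 0.08 TPM. The 4 endothelial genes summed to 0.45 TPM or less. The 7 smooth muscle markers summed to between 194 and 282 TPM in knockout and between 166 and 324 TPM in control, from Smtn, Synpo2 and Tagln, while the smooth muscle myosin Myh11 reached at most 0.06 TPM and Cnn1 at most 0.84 TPM. The 5 cardiac markers summed to between 76.2 and 199 TPM in knockout and between 51.8 and 95.02 TPM in control, nearly all of it Myh6. Fibroblast markers summed to between 155 and 217 TPM in knockout and between 197 and 296 TPM in control, mostly Col3a1. Col1a1 stood at 11.1, 24.9 and 11.6 TPM in knockout and at 30.3, 35.9 and 75.9 TPM in control. Its groups were apart (log2 difference −1.50, SE 0.42, adjusted p = 0.272), as were those of 15.3% of all genes tested with lower values in knockout. Genes of undifferentiated myoblasts (Pax7, Myf5, Cdk1, Mki67 and Top2a) summed to between 35.4 and 64.5 TPM in knockout and between 63.1 and 69.3 TPM in control. All 5 had log2 differences below 0, as had 8038 of 12461 genes tested. Of these 5, only Mki67, at 1.96 TPM or less, had groups apart. The part of these differences in the results was not tested. Control replicates 1 and 2 lay at opposite ends for many genes, and several results that rest on one of them are given with and without it. Read depth cannot be recovered from TPM and is unknown.

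The coding sequences of the 5 actins are close to each other, which bears on how far the TPM of one can be separated from that of another. The first 36 coding bases are shown because the amino-terminal end is where actins differ most. They come from the GENCODE transcript (GRCm38) matched to each deposited accession, written 5′ to 3′. Capitals mark bases that differ from the base of Acta1 at the same position, with no gaps placed.
Acta1: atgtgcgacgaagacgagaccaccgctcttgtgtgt
Actc1: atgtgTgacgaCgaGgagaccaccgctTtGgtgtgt
Acta2: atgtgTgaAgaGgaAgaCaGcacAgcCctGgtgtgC
Actb: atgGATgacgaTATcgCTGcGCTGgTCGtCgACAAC
Actg1: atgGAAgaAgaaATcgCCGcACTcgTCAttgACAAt
These stretches lie on the minus strand, in coding exons, at chr8:123893662-123893697 for Acta1, chr2:114051996-114052031 for Actc1, chr19:34252518-34252553 for Acta2, chr5:142905651-142905686 for Actb and chr11:120348056-120348091 for Actg1. Within them, counted position by position without gaps, Actc1 differs from Acta1 at 5 bases and Acta2 at 10, while Actb differs at 22 and Actg1 at 19. Tpm1 and Tpm2, of another family, also differ from Acta1 at 22 by this count. Actb and Actg1 encode fewer codons and were not aligned here, so their counts do not measure substitutions. Over the whole coding sequence the 3 muscle actins encode 377 codons and the cytoplasmic actins 375. Identity ran from 81.5% (Actc1 or Acta2 with Actg1) to 88.7% (Actb with Actg1), and Acta1 and Actc1 were 86.2% identical. The longest run of identical bases was 77 between Acta1 and Actb, 62 between Actb and Actg1 and 59 between Acta1 and Actg1, against 29 between Acta1 and either Actc1 or Acta2. Reads that fall in such runs may not be assignable to 1 gene, and the sources used here do not say how the counting treated them. Values of the rarer actins are therefore uncertain where Acta1 is far more abundant.

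Skeletal muscle actin was the most abundant of the 9 transcripts, and each knockout library held more of it than any control library. Acta1 (chromosome 8, 123891758 to 123894775 in RefSeq's GRCm38.p6 annotation, the source of each gene position given) stood at 29919, 34413 and 28195 TPM in knockout replicates 1 to 3 and at 22816, 25651 and 24810 TPM in control replicates 1 to 3. The groups did not overlap, and Acta1 ranked first or second of all genes in each library. The means were 30842 ± 3210 TPM in knockout and 24426 ± 1456 TPM in control (SD, n = 3), 1.26 times as high in knockout. On the log2(TPM + 1) scale the difference was 0.33 (SE 0.18, 95% interval −0.10 to 0.77), and it did not pass limma's test with Benjamini-Hochberg adjustment over all genes tested (adjusted p = 0.498). That test uses a spread shared with genes of similar level. The unadjusted p of limma, 0.111, moved both ways with the settings. It was 0.0219 without the intensity trend (adjusted p = 0.326) and 0.0372 with robust moderation. It was 0.175 with the replicate number as a block and 0.684 without the filter on TPM. Of the 8 myotube markers, Mybph and Des had groups apart with higher values in knockout, and 0 had groups apart with lower values. Over all genes tested these shares were 4.27% and 15.3%. Mybph, a myosin-binding protein, was 1.36 times as high in knockout (log2 difference 0.46, SE 0.19, adjusted p = 0.396) and the intermediate filament gene Des 1.24 times (0.30, SE 0.14, adjusted p = 0.430), each with every knockout library above every control library. The list had a median log2 difference of 0.27, with 5 above and 3 below 0. Those below were Myh8 (−0.50, SE 0.22), Tnnt3 (−0.25, SE 0.19) and Ckm (−0.22, SE 0.39), each with overlap. The difference of Myh8 was the largest of the list in either direction. The part of these markers in the Acta1 values was not tested.

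The fetal and cardiac form Actc1 (chromosome 2, 114047282 to 114052875) was the next most abundant actin. Its values were 5312, 5451 and 4976 TPM in knockout and 3874, 5889 and 4688 TPM in control. The knockout libraries lay within the range of the controls, whose extremes were replicates 1 and 2. The means were 5246 ± 244 and 4817 ± 1014 TPM, a log2 difference of 0.14 (SE 0.18, adjusted p = 0.763). It was −0.0032 without control replicate 1 and 0.30 without control replicate 2. Of the 5 cardiac markers, Nppa and Myl7 were listed at 0 in all 6 libraries and Ryr2 was at 0.02 TPM or less, whereas Myh6 and Tnni3 were detected. Myh6, the alpha cardiac myosin, stood at 175, 196 and 73.7 TPM in knockout and at 79.7, 51.1 and 94.2 TPM in control, with overlap (log2 difference 0.90, SE 0.40, adjusted p = 0.424). Tnni3, cardiac troponin I, stood at 1.84, 2.58 and 2.52 TPM in knockout and at 1.16, 0.71 and 0.81 TPM in control, without overlap (log2 difference 0.81, SE 0.16, unadjusted p = 0.00187, adjusted p = 0.164). The part of these genes in the Actc1 values was not tested. In every library Acta1 exceeded Actc1, by 5.63, 6.31 and 5.67 times in knockout and by 5.89, 4.36 and 5.29 times in control. These ratios overlapped between the groups, and without control replicate 1 the 3 knockout ratios lay above the remaining controls.

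**Figure D1:**
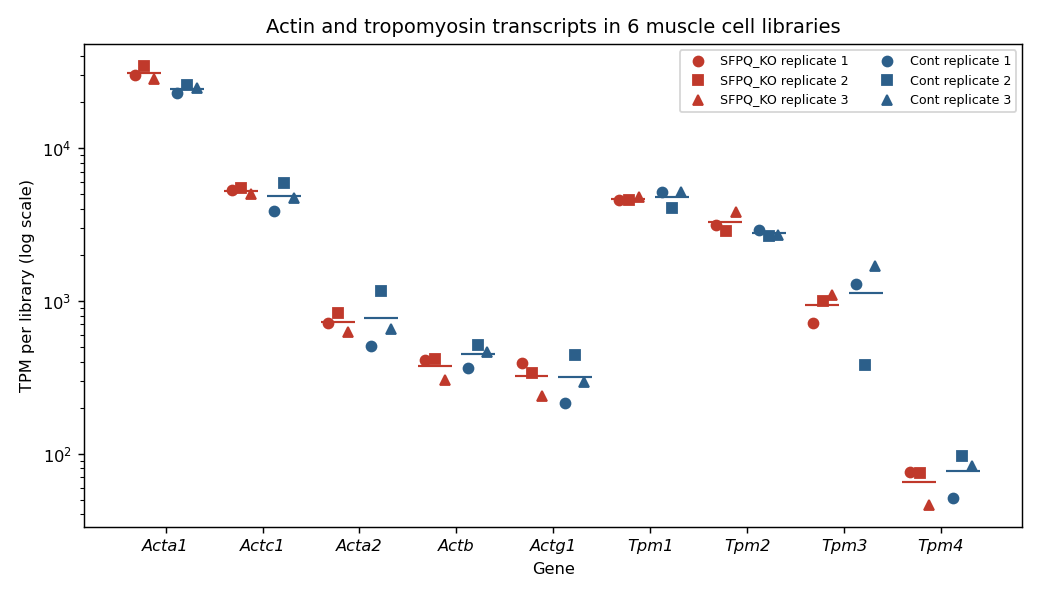
TPM of each actin and tropomyosin gene in the 6 libraries, on a log axis. Red points are SFPQ_KO libraries, blue points Cont libraries, the shape gives the replicate number and the line the group mean (n = 3). Acta1 is the gene whose groups are apart, and Tpm3 spans from 382 to 1696 TPM within the controls.

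Smooth muscle actin and the cytoplasmic actins did not separate the genotypes. Acta2 (chromosome 19, 34240336 to 34255585) was at 720.0, 832 and 623 TPM in knockout and at 503, 1166 and 651 TPM in control. The controls held both the lowest and the highest of the 6 values, replicate 1 and replicate 2. The log2 difference was −0.01 (SE 0.30, adjusted p = 0.992), and without control replicate 2 it was 0.33 (adjusted p = 0.402). Tagln, a smooth muscle marker that other contractile and migratory cells also make, went from 16.5 TPM in control replicate 1 to 151 TPM in control replicate 2, and the other abundant markers were Smtn, between 71.4 and 103 TPM in all libraries, and Synpo2. Synpo2, an actin-binding protein of the Z-disc as well as of smooth muscle, stood at 89.1, 68.9 and 78.3 TPM in knockout and at 55.5, 65.2 and 67.5 TPM in control, without overlap (log2 difference 0.32, SE 0.12, adjusted p = 0.379). The part of these markers in the Acta2 values was not tested. The enteric smooth muscle actin Actg2, no member of the set, stayed at 8.03 TPM or less.

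Beta actin, Actb (chromosome 5, 142903115 to 142907976), was at 408, 415 and 304 TPM in knockout and at 361, 516 and 466 TPM in control. The means were 376 ± 61.8 and 448 ± 79.1 TPM, and the groups overlapped through control replicate 1. The log2 difference was −0.25 (SE 0.18, adjusted p = 0.592), and −0.40 without control replicate 1 (adjusted p = 0.479). Gamma actin, Actg1 (chromosome 11, 120345687 to 120348495), was at 389, 335 and 240.0 TPM in knockout and at 215, 439.6 and 295 TPM in control. Its group means were nearly equal, 321 ± 75.5 and 317 ± 114 TPM (log2 difference 0.06, SE 0.29, adjusted p = 0.950). As for Acta2, control replicate 1 was the lowest and control replicate 2 the highest of the 6 libraries. Actb overlaps a long noncoding gene and Actg1 a microRNA gene in the annotation, and both have processed copies elsewhere in the genome, so their values are uncertain in this respect too.

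Summed over the 5 genes, actin transcripts took 3.67%, 4.14% and 3.43% of all TPM in knockout and 2.78%, 3.37% and 3.09% in control, again without overlap. The lowest knockout library (replicate 3) and the highest control library (replicate 2) were close. Most of each sum was Acta1. Its share of actin TPM was 81.4%, 83.0% and 82.1% in knockout and 82.2%, 76.2% and 80.3% in control, so the Acta1 share overlapped between the genotypes through control replicate 1. Without that library the Acta1 share was higher in each knockout library (means 82.2% and 78.2%). Actc1 made up 13.2% to 14.5% of actin TPM in knockout and 14.0% to 17.5% in control, and Acta2 1.82% to 2.01% against 1.81% to 3.46%. Without control replicate 1 both shares were lower in each knockout library. The means were then 14.0% and 16.3% for Actc1 and 1.93% and 2.79% for Acta2. Of the 5 actin shares, only that of Actb had groups apart with all libraries kept. It was 1.11%, 1.00% and 0.886% in knockout and 1.30%, 1.53% and 1.51% in control, with means of 0.999% ± 0.111 and 1.45% ± 0.127 (SD, n = 3). This share combines a higher Acta1 with an Actb level whose groups overlap. Among all genes tested, TPM levels were fully apart for 4.27% with higher values in knockout and for 15.3% with lower values. Without control replicate 1 these were 5.64% and 25.2%. Nothing is read from a single share against that background. Actg1 did not follow, with 0.70% to 1.06% in knockout and 0.77% to 1.31% in control. Shares within a library add up to the whole and so are not independent of each other, and no test was made on them.

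**Figure D2:**
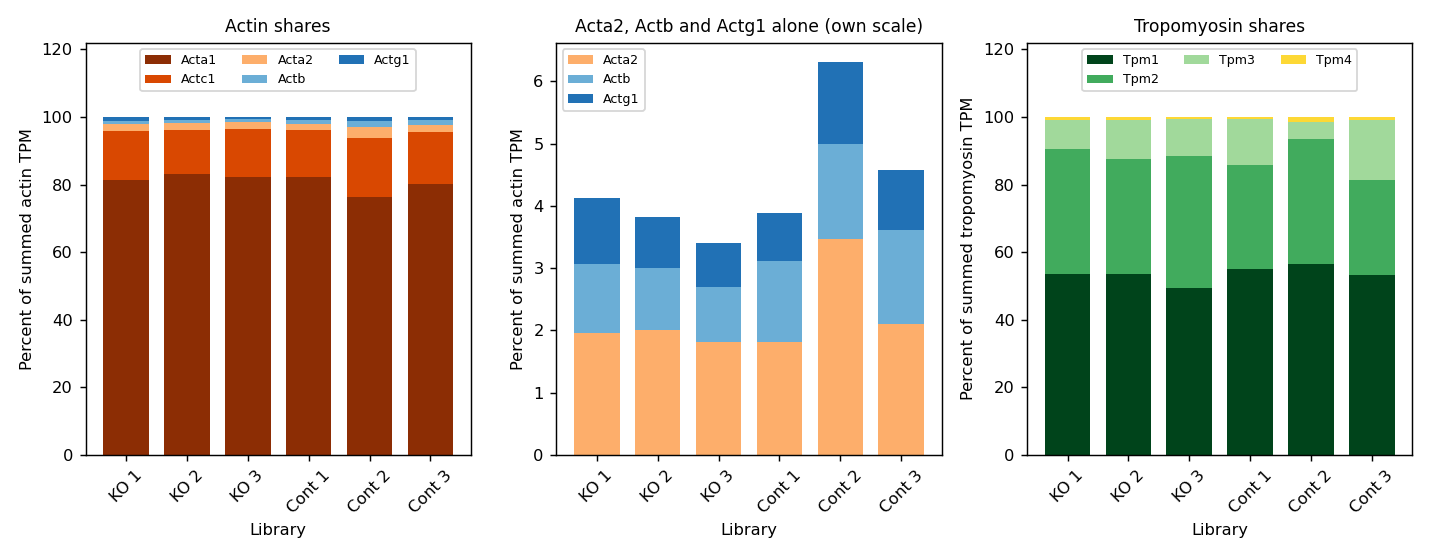
Share of each gene in the summed TPM of its family, by library. The left plot shows all 5 actins, the middle plot Acta2, Actb and Actg1 alone on a scale of their own, and the right plot the 4 tropomyosins. Cont 2 has the smallest Acta1 share (76.2%) and the smallest Tpm3 share (5.29%).

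Tropomyosin transcripts were dominated by the muscle alpha and beta genes, and their sum was nearly equal in the genotypes, 8919 ± 724 TPM in knockout and 8735 ± 1315 TPM in control. The deposited tables list a single accession for each of these genes, while RefSeq holds 10 curated transcripts of Tpm1, 7 of Tpm3 and 3 of Tpm2. Splice forms within a gene are therefore not resolved here. The accessions listed for Tpm1, Tpm2 and Tpm3 each encode 284 codons, the long type, and that of Tpm4 encodes 248 codons, the short type. Codon counts alone do not show whether these accessions are sarcomeric forms. The sources used here do not say whether reads of other forms were counted under them.

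Tpm1 (chromosome 9, 67022590 to 67049672) was the steadiest of the 4 in knockout, at 4549, 4578 and 4806 TPM, against 5151, 4075 and 5119 TPM in control. Control replicate 2 was the lowest library and the other controls the highest, so the groups overlapped. The log2 difference was −0.03 (SE 0.14, 95% interval −0.37 to 0.30, adjusted p = 0.936). Tpm2 (chromosome 4, 43513726 to 43523583) was at 3131, 2880.3 and 3819 TPM in knockout and at 2892, 2668 and 2708 TPM in control. The means were 3277 ± 486 and 2756 ± 119.6 TPM, and the groups overlapped by a narrow margin, knockout replicate 2 lying just below control replicate 1. The log2 difference was 0.24 (SE 0.14, 95% interval −0.09 to 0.57, adjusted p = 0.514). Its span overlaps Car9, a protein-coding gene, and the use of strand in counting is not given. Tpm1 exceeded Tpm2 by 1.45, 1.59 and 1.26 times in knockout and by 1.78, 1.53 and 1.89 times in control. That ratio overlapped between the groups through control replicate 2, and without it the controls lay above the knockouts (means 1.84 and 1.43).

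Slow tropomyosin, Tpm3 (chromosome 3, 90072651 to 90100902), varied most. It was at 719, 997 and 1084 TPM in knockout and at 1282, 382 and 1696 TPM in control. Control replicate 2 held the lowest value of the 6 libraries and control replicate 3 the highest, a range of 4.43 times, against 1.51 times among the knockouts. The log2 difference was −0.03 with an SE of 0.53 and a 95% interval from −1.30 to 1.23, so changes of over 2-fold in either direction lay within the interval (adjusted p = 0.985). Without control replicate 2 it was −0.68 (unadjusted p = 0.0209, adjusted p = 0.254), and without control replicate 3 it was 0.39. Tpm4 (chromosome 8, 72135288 to 72153142) was the rarest member, at 75.8, 74.2 and 46.2 TPM in knockout and at 51.3, 96.1 and 83.2 TPM in control. Its groups overlapped (log2 difference −0.22, SE 0.28, adjusted p = 0.778).

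As shares of tropomyosin TPM, Tpm1 held 49.3% to 53.7% in knockout and 53.3% to 56.4% in control, and Tpm2 held 33.8% to 39.1% and 28.2% to 36.9%. The Tpm3 share was 8.48%, 11.7% and 11.1% in knockout and 13.7%, 5.29% and 17.7% in control. Each of these shares overlapped between the genotypes. Without control replicate 2 the Tpm2 share was higher in each knockout library (means 36.6% and 29.5%) and the Tpm3 share lower (means 10.4% and 15.7%). Without control replicate 3 both shares overlapped, with means of 36.6% and 33.9% for Tpm2. The Tpm3 means were then 10.4% in knockout and 9.48% in control, the reverse order. Actin transcripts outnumbered tropomyosin transcripts by 4.34, 4.86 and 3.52 times in knockout and by 2.96, 4.66 and 3.22 times in control, with overlap through control replicate 2. Without that library the ratio was higher in each knockout library (means 4.24 and 3.09).

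Ordered by mean TPM, which is a level per transcript length, the members ran Acta1, Actc1, Tpm1, Tpm2, Tpm3, Acta2, Actb, Actg1 and Tpm4. Actc1 and Tpm1 changed places, with Actc1 higher in 4 of 6 libraries, and so did Tpm3 and Acta2, with Tpm3 higher in 4 of 6. The ranges of Acta2 and Actb and of Actb and Actg1 also overlapped across libraries, although within each of the 6 libraries Acta2 exceeded Actb and Actb exceeded Actg1. Acta1 was apart from Actc1, Tpm1 from Tpm2, Tpm2 from Tpm3 and Actg1 from Tpm4 in every library.

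No member passed the test between the genotypes. With adjusted p under 0.05, limma called 0 of 9 members and 0 of 12461 genes, 0.0% in each direction. At an unadjusted p under 0.05 it again called 0 of 9 members, where 2.68% of all genes were called higher in knockout and 9.62% lower. That split over all genes, 334 higher and 1199 lower, became 719 and 710 after median-of-ratios scaling. The 2 groups were fully apart for 1 of 9 members with higher values in knockout, Acta1, and for 0 with lower values, beside 4.27% and 15.3% of all genes. Nothing is read from a single member against that background. Without control replicate 2 they were apart for Acta1 and Actc1, higher, and for Tpm1 and Tpm3, lower, beside 12.3% and 23.5% of all genes. Without control replicate 1 they were apart for Acta1 and Tpm2, higher, and for Actb and Tpm4, lower, beside 5.64% and 25.2%. The members' log2 differences had a median of −0.01 with 4 above and 5 below 0, beside a median of −0.07 over all genes tested.

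**Figure D3:**
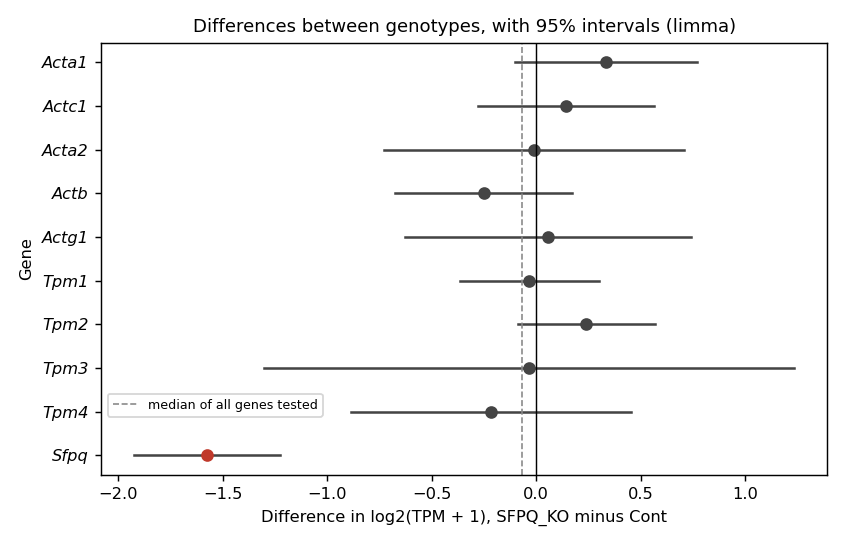
Difference in log2(TPM + 1), knockout minus control, for each member and for Sfpq in red, with 95% intervals from limma. The dashed line is the median of all genes tested (−0.07). The intervals of all 9 members include 0, that of Tpm3 is the widest, and that of Sfpq (−1.92 to −1.22) does not include 0.

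Within the groups several members spread widely. The SD within groups on the log2 scale was 0.46 for Acta2, 0.44 for Actg1 and 0.43 for Tpm4, at percentiles 91.7, 90.8 and 90.4 of all genes tested, and 0.84 for Tpm3, at percentile 98.6. Acta1, at 0.12, lay below the median spread of all genes, 0.16. Among the controls, replicate 2 was highest and replicate 1 lowest for 6 of 9 members, all 5 actins and Tpm4. The same order was found in 35.6% of all genes tested. By list, genes that 2 lists share left out, it held for 8 of 12 crosslinkers, 6 of 10 genes of the SRF axis, 10 of 17 nucleation genes, 9 of 18 genes of monomer handling, 7 of 15 folding genes, 3 of 8 end-capping genes, 3 of 8 myotube markers and 0 of 7 actin relatives. For Tpm1, Tpm2 and Tpm3 replicate 2 was instead the lowest control. The actin-binding proteins Actn1 (57.6 and 145 TPM in control replicates 1 and 2) and Flna (26.7 and 71.4 TPM) spanned 2.52 and 2.67 times among the controls, and Acta2 spanned 2.32 times.

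**Figure D4:**
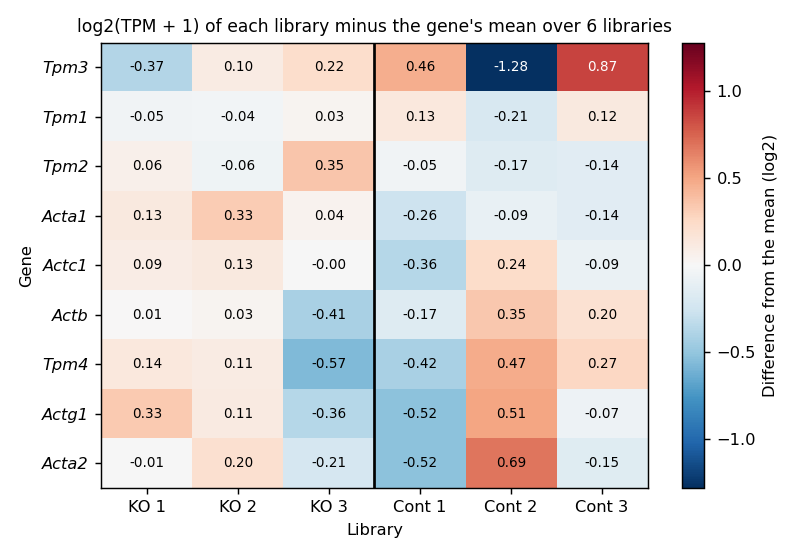
log2(TPM + 1) of each library minus the mean of the gene over the 6 libraries, with knockout libraries left of the line. Acta2, Actg1, Tpm4 and Actb share a low Cont 1 and a high Cont 2, Tpm3 has the reverse (−1.28 in Cont 2), and Acta1 is above its mean in each knockout library.

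By the shape of this profile, members resembled each other to different degrees. The likeness was measured as the root mean square difference of log2(TPM + 1) values centred on each gene's mean over 6 libraries, where a smaller number is closer. The closest pairs were Actb with Tpm4 (0.15), Acta1 with Actc1 (0.17) and Acta2 with Actg1 (0.18), and the farthest was Acta2 with Tpm3 (1.02). Among 7911 other genes with a mean TPM of at least 10, those nearest to Acta1 were Ppp1r9b (0.066), Pgs1 (0.067) and Hexa (0.069). Nearest to Actc1 were Dusp16 (0.032), Cxxc5 (0.038) and Ppfia4 (0.043), and nearest to Actb were Tle3 (0.056), Pxdn (0.060) and Mapk6 (0.066). For Tpm2 they were an accession without a gene name (0.044), Serf1 (0.048) and Foxo3 (0.054).

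Actin genes are classic targets of serum response factor, Srf, which binds the CArG box and is driven by actin monomer levels through its MRTF coactivators. The upstream windows of 3 actins that hold a CArG box are shown because it is the element these genes share. Of the 9 members, 8 had a window in RefSeq's promoter table (GRCm38.p6), Tpm3 for more than 1 start, and Actb had none. A search of both strands of the 250 bases before each start found the CArG box in Acta1, Actc1 and Actg1, and in 1.47% of all windows of that length. Some windows belong to a start inside the gene: of 250 bases only 38 of the Acta2 window, 221 of the Tpm2 window and 0 of the Tpm1 window lay outside the gene span, so the stretch before the outermost start of Acta2 and Tpm1 was mostly or wholly not searched. Capitals mark the box, and each sequence reads 5′ to 3′ toward the gene.
Acta1: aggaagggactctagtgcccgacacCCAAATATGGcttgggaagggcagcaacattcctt
Actc1: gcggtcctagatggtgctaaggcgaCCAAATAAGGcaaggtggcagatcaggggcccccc
Actg1: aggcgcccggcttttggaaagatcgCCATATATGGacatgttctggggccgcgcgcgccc
They lie on the minus strand at chr8:123894814-123894873, chr2:114052888-114052947 and chr11:120348551-120348610, and the box begins 73, 47 and 90 bases before the annotated start. The E-box letters CANNTG, which myogenic factors such as Myog bind, were in the windows of Acta1, Acta2, Actg1, Tpm1, Tpm2 and Tpm3 and in 66.2% of all windows. TATAAA was in that of Acta1 alone among the members and in 12.4% of all windows. A match of letters is a description and not a bound site, and binding was not measured here.

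No gene of the lists around actin passed the test between the genotypes. Of 94 genes in 7 lists 93 had a value and 89 were tested, and 0 passed at an adjusted p under 0.05. At an unadjusted p under 0.05 there were 1 higher and 2 lower, beside 2.68% and 9.62% of all genes. These counts were 7 and 0 without control replicate 2 (5.01% and 10.4% of all genes) and 1 and 4 without control replicate 1 (1.73% and 8.6%). After median-of-ratios scaling they were 3 and 2, beside 719 and 710 of 12461 genes. The SRF axis had 10 tested genes with a median log2 difference of −0.02. Srf stood at 65.6, 58.2 and 59.9 TPM in knockout and at 51.7, 73.0 and 56.1 TPM in control. Mrtfb, an Srf coactivator, had a difference of −0.28 (SE 0.17, adjusted p = 0.551), and Scai, an inhibitor of these coactivators, one of −0.22 (SE 0.13, adjusted p = 0.542).

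Among 18 genes that sever, bind or recycle actin monomers the median log2 difference was −0.07, and 1 was lower at an unadjusted p under 0.05. This was Ssh2, a phosphatase that activates cofilin, at 12.5, 12.4 and 10.7 TPM in knockout and at 13.2, 16.1 and 15.4 TPM in control (log2 difference −0.30, SE 0.12, adjusted p = 0.376). Tmsb10, a thymosin that binds actin monomers, ranged from 2008 to 2884 TPM in knockout and from 1393 to 2784 TPM in control. Of 15 genes for folding and modification of actin, 3 had groups apart with higher values in knockout (Cct5, Pfdn1 and Pfdn5) and 1 with lower values (Pfdn4), beside 4.27% and 15.3% of all genes, or 9.33% and 9.11% after median-of-ratios scaling. Pfdn1, a subunit of the prefoldin chaperone that hands new actin to the CCT chaperonin, was at 145, 148 and 149.8 TPM in knockout and at 119, 123 and 125 TPM in control (log2 difference 0.27, SE 0.07, unadjusted p = 0.00655, adjusted p = 0.251). The log2 difference was 0.23 (SE 0.11) for Pfdn5 and −0.21 (SE 0.10) for Pfdn4, both with an adjusted p of 0.435.

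The caps and nucleators of actin filaments had medians near that of all genes. For 9 tested genes of filament ends the median log2 difference was −0.08. Capza1 and Capzb, subunits of the capping protein of barbed ends, had knockout values below each control, with differences of −0.21 (SE 0.09, adjusted p = 0.409) and −0.08 (SE 0.07). Groups were apart with lower values in knockout for 15.3% of all genes tested. Tmod1, which caps pointed ends in the sarcomere, was at 359, 270.5 and 359.5 TPM in knockout and between 282 and 287 TPM in control. Over 17 tested nucleation genes the median was −0.09, and the formin Diaph3 was lower at an unadjusted p under 0.05 (−0.43, SE 0.15, adjusted p = 0.343), from a level of 1.07 TPM or less. Over 12 crosslinkers and side-binding genes the median was 0.06 with 0 called. Actn2, the alpha-actinin of the Z-disc, was the most abundant of them, between 2608 and 2859 TPM in all libraries.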

How the data were processed

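Poly-A RNA of 6 libraries was sequenced on an Ion Proton, with groups taken from the sample titles. The authors deposited TPM values, 1 per RefSeq accession and library, which sum to 1000000 in each library. Reads were aligned with STAR 2.4.1d to mm10, per the submitters' processing notes. For counting, the sources used here name no tool, annotation release or strand setting. Of 34671 accessions, 30822 were named from a RefSeq table of GRCm38.p6 (the same assembly as mm10) and 103 from GENCODE, and TPM was summed per symbol. The 3746 without a name, 1.19% to 1.27% of TPM per library, were kept under their accession.

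Genes reaching a TPM of 1 in 3 or more libraries entered the test, on the log2(TPM + 1) scale, which understates changes of low genes, with limma 3.58.1 in R 4.3.3 (intensity trend, 2-sided, Benjamini-Hochberg over all genes tested, threshold 0.05). The fit was checked on simulated data. Shares, ratios and profiles are descriptions without a test. Alternatives covered the pseudocount, filter, scaling, moderation, a replicate block and each library left out. Counts of groups that do not overlap under other scalings or without 1 library were added after seeing the data.

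The members and lists were chosen with earlier results of these data known. Named genes are the members, Sfpq, up to 4 genes with the smallest p in each pathway list, up to 3 markers with the highest TPM per cell type list and those at 0, and the 3 nearest profiles of Acta1, Actc1, Actb and Tpm2. The likeness of the other members, and Srf, Actn2, Flna, Cct5, Cnn1, Myh11, Myh8 and Ckm outside that rule, were added after their values were seen. Tables were joined in Python 3.11.15 (pandas 2.3.3) and drawn with matplotlib 3.10.9.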

Additional observations from a re-analysis of the deposited data

How the results depend on the processing

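No member had an adjusted p under 0.05 in limma in any of 16 alternatives (lowest 0.254), and 0 pathway genes did. Of 144 member values 127 kept their direction, counting Acta1 after quantile normalization, which gives equal ranks equal values and put its difference at 0.00. Tpm2 and Actb kept theirs in all 16, and Acta1 reversed in none. Apart from left-out libraries, reversals were these: after median-of-ratios scaling Acta2 was at 0.063, Tpm1 at 0.040 and Tpm3 at 0.042, after quantile normalization Acta2 was at 0.025 and Tpm1 at 0.0093, and after rescaling without the 10 most abundant genes Acta2 was at 0.018. The cause was not tested. With each library left out in turn the log2 difference ranged from −0.0032 to 0.30 for Actc1, −0.27 to 0.33 for Acta2, −0.19 to 0.32 for Actg1, −0.15 to 0.024 for Tpm1, −0.68 to 0.39 for Tpm3 and −0.48 to 0.012 for Tpm4. Sfpq (−1.57, adjusted p = 0.0531) passed with a pseudocount of 5 (−1.39, adjusted p = 0.0431) and with a mean TPM of at least 5 (−1.57, adjusted p = 0.0445). Over all genes the number with an adjusted p under 0.05 was 13 and 7 in these 2 settings. With the replicate number as a block 0 members passed (lowest adjusted p = 0.679), and genes at an unadjusted p under 0.05 went from 334 higher and 1199 lower to 224 and 835. Whether the replicate numbers pair the libraries is unknown. Deviations from the group mean correlated across genes at −0.26, −0.25 and 0.05 for same-numbered libraries. For the other pairs of a knockout and a control library they correlated at −0.27 to 0.41. With 3 libraries per group these values cannot decide whether libraries were paired. Depth is unknown, so its limit on the rarer members could not be computed.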

Other observations

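The neighbours of the other members were looked up after the values were seen. By the same measure of likeness over 6 libraries, the genes nearest to Tpm3 were Chrne, the adult subunit of the muscle acetylcholine receptor (0.24), Ucp3, a mitochondrial uncoupling protein of muscle (0.25), and Atg9b (0.26). Chrne stood at 15.9, 27.1 and 36.3 TPM in knockout and at 46.2, 13.3 and 54.8 TPM in control, so that, like Tpm3, it was lowest in control replicate 2 and highest in control replicate 3. Nearest to Tpm4 were the matrix proteoglycan Bgn (0.10), Cpq (0.10) and the receptor Notch3 (0.13). Bgn was at 149 TPM in control replicate 1 and at 333 TPM in control replicate 2. Nearest to Acta2 were Adgra3 (0.094), Foxo1 (0.11) and Plxna1 (0.13), and nearest to Actg1 was Tns3, a tensin that links actin to integrins (0.077). Tpm1 was nearest to Klhdc3 (0.031).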
